A study of Mus musculus with 4 samples.

Results

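CXC chemokines are small secreted proteins, named for the spacing of their first conserved cysteines, that steer leukocytes through G protein-coupled receptors. The 10 genes described here were taken by symbol, and they were chosen with earlier results of these data known. They are 5 ligands (Cxcl12, Cxcl1, Cxcl2, Cxcl16 and Cxcl14) and 5 receptors (Cxcr4, Cxcr2, Cxcr6, Cxcr3 and Ackr3), of 32285 genes in the count tables, and every one had a UMI (unique molecular identifier, which marks 1 captured RNA molecule) in each of the 4 libraries. The libraries were scRNA-Seq of fracture callus and of trabecular bone from C57BL/6J male mice aged 20 weeks, taken at week 2, with 1 control and 1 GC library for each tissue. GC mice received the glucocorticoid prednisolone at 6.25 mg/kg/d, and control mice received placebo. The labels describe a slow-release pellet under the skin for all mice, whereas the study's methods describe daily injection for the fracture model. How many mice stood behind a library is not given in the sources used here. Bone left after the marrow had been flushed out was crushed and treated with collagenase and dispase. With 1 library per tissue and condition there is no replicate error. No test was therefore run between GC and control, and every 95% interval covers counting error only.

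In bone, Cxcl12 is made chiefly by marrow stromal cells and holds hematopoietic stem cells, B cells and neutrophils in place through Cxcr4, while Ackr3 is an atypical receptor that takes up Cxcl12 without G protein signalling. Cxcl1 and Cxcl2 are induced by inflammatory signals and draw neutrophils out of marrow and into tissue through Cxcr2. Cxcl16, a transmembrane chemokine, is the ligand of Cxcr6 on T cells, and Cxcr3 guides activated T cells toward interferon-induced ligands. Cxcl14 is expressed by many epithelial and connective tissue cells.

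Cxcl1 (chromosome 5, 90891241 to 90893115, GRCm38) and Cxcl2 (90903871 to 90905938) are neighbors and are induced through NF-kB, so their promoters are shown, from 250 bases before the start of transcription. The sequences are from RefSeq (GRCm38.p6, plus strand), 5′ to 3′. Capitals mark 1 spelling of the kB motif, GGGAATTTCC, which was searched on both strands.
Cxcl1, chr5:90890995-90891294: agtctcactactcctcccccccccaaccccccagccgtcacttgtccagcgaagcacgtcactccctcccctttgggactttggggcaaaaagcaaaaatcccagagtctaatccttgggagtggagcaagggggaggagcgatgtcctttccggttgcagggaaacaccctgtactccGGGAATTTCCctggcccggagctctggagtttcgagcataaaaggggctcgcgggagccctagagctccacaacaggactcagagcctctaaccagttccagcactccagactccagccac
Cxcl2, chr5:90903649-90903948: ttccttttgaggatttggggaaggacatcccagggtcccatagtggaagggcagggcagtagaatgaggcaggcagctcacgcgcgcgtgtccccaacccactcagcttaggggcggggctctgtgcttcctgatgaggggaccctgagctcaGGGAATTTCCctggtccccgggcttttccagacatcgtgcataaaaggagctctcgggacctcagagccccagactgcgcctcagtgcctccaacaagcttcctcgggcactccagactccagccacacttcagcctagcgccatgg
The motif began 71 bases before the start of transcription used for these sequences in Cxcl1 and 97 bases before it in Cxcl2. Those starts are not the first bases of the gene positions printed above. A promoter was given for 9 of the 10 genes, and this spelling of the motif was in these 2 only. Of 27025 promoters of the same length, 24 held it (0.0888%), those of Cxcl3 and Nfkbia among them. A full glucocorticoid response element, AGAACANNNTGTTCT, was in 0 of the 9 and in 1 of the 27025 (0.0037%). Sites with other letters were not searched for, so these counts hold for the spellings given and not for all such sites. A match of letters is a description and does not show that a factor binds there.

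Filtering left 6705 and 6890 cells in the control and GC callus libraries and 3803 and 4601 cells in those of trabecular bone, with median depths from 3259.5 to 6300 UMIs. Between 7 and 10 barcodes were shared by any 2 libraries. Cells were clustered without the genes described here, and clusters were named from markers, so each class name below is to be read as "like" that cell. Unnamed cells made up 16.3% of GC callus against 4.55% of control callus, and under 2% of each trabecular library. As a check of the GC label, 5 of 8 measured glucocorticoid response genes were at least 2-fold higher in mature neutrophils of GC trabecular bone, Fkbp5 among them (12.1 CPM in control, 114 with GC). CPM is the UMI count of a gene scaled to a common total per class. In callus the same check gave 0 genes higher and 1 lower of 7 in mature neutrophils, and 0 of 9 past 2-fold in chondrocytes, with a median log2 ratio of 0.34. Few genes of any kind passed 2-fold in those chondrocytes, 28 higher and 69 lower of 12463. Response genes did pass, with none lower, in some other classes of GC callus. They were 2 of 2 in plasma cells, and 2 of 8 each in osteoclasts, osteoblasts or osteocytes, and mixed-stage chondrocytes. In those mixed-stage cells 338 of 7443 genes of any kind were higher. B cells had 1 of 8 higher, and NK or innate lymphoid cells 1 of 6. None passed among 7 in T cells, 6 in macrophages, 4 each in conventional dendritic and endothelial cells, and 3 in mast cells or basophils. Hypertrophic chondrocytes had 0 of 9 past 2-fold and a median of 0.70.

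**Figure D1:**
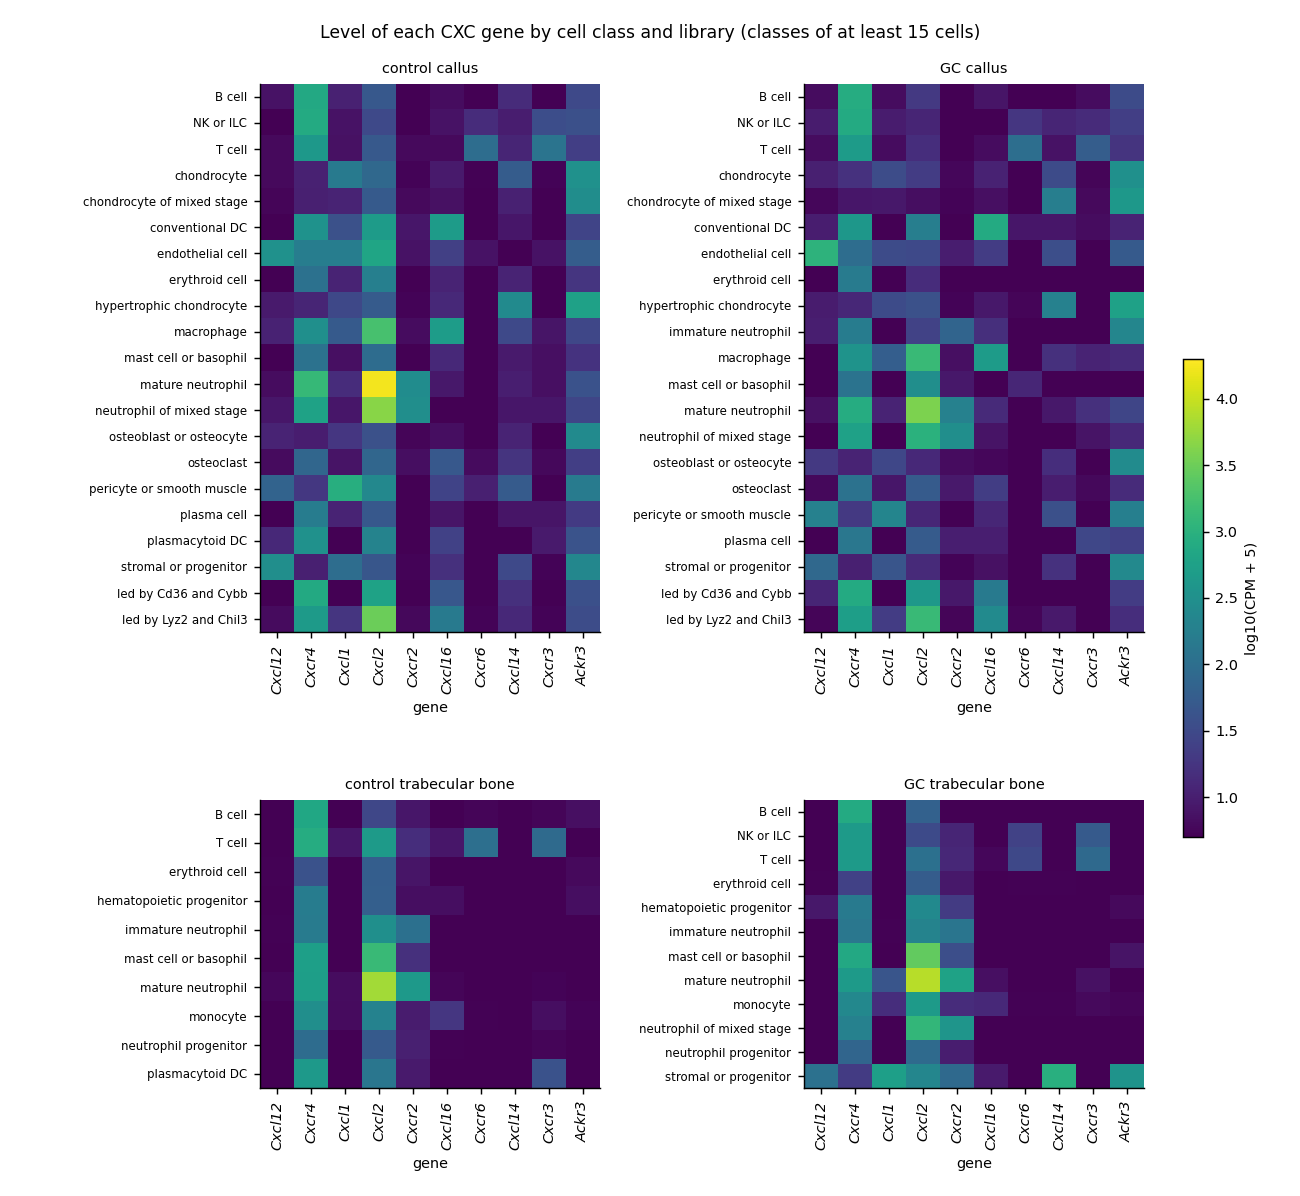
Level of each of the 10 genes (columns) in each cell class of at least 15 cells (rows), 1 panel per library, as log10 of CPM with 5 CPM added. Cxcl2 was highest in mature neutrophils in every library, Cxcr4 was spread over leukocytes, and Ackr3 was highest in cartilage classes of callus.

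Across the 20 callus classes, 70 of the 200 pairs of gene and class had at least 50 UMIs over both libraries. Of these 70, 20 were at least 2-fold lower with GC and 5 were at least 2-fold higher, on log2 ratios with 5 CPM added. Over all genes and classes of callus, 2.07% of pairs were that much lower and 1.73% that much higher. The lower pairs were concentrated in 2 genes, with 12 of them for Cxcl2 and 4 for Cxcl1. In trabecular bone, 26 pairs were measured, of which 4 were at least 2-fold higher (background 1.67%) and 2 were at least 2-fold lower (background 4.65%). Those 2-fold limits are a rule of size and not a test.

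**Figure D2:**
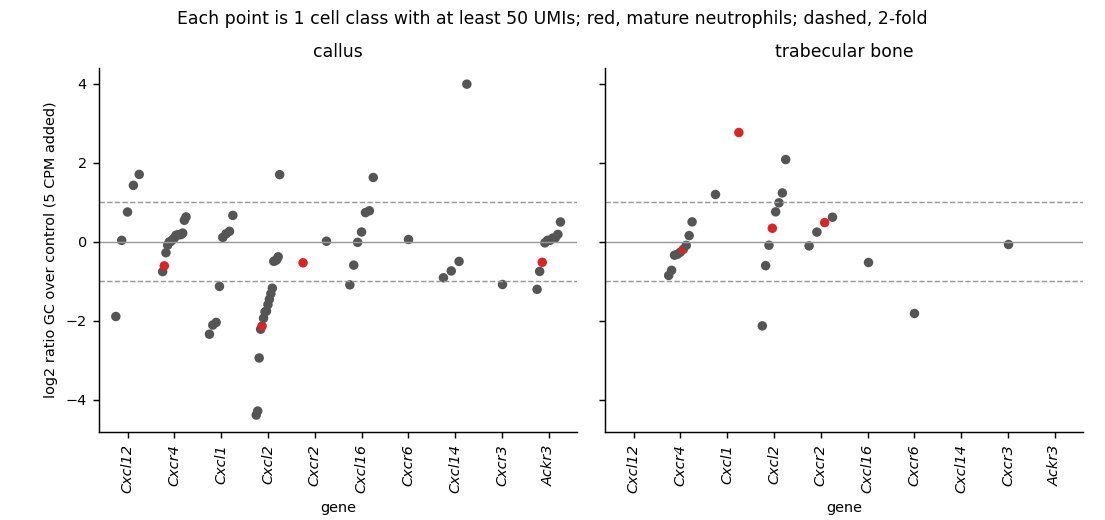
Log2 ratio of GC over control (vertical axis, 5 CPM added) for each gene; each point is 1 cell class with at least 50 UMIs, red points are mature neutrophils and dashed lines mark 2-fold. Most Cxcl2 points of callus lie below the lower line, and no Cxcr4 point lies outside the lines in either tissue.

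Cxcl2, a neutrophil attractant that neutrophils themselves also make, was the most abundant of the 10 genes. In mature neutrophils it stood at 17069 CPM (95% interval 16889 to 17250.5) in control callus and at 3885 CPM (3782 to 3990) in GC callus. In trabecular bone the corresponding levels were 6387 CPM (6329 to 6445) in control and 8103 CPM (8039.8 to 8168) with GC. The callus level with GC was thus 0.228 times that of control (0.221 to 0.234), a log2 ratio of -2.13. The trabecular log2 ratio was 0.34, close to the median of 0.29 over all genes measured in that class. It compares libraries whose mature cells lay mostly in different clusters. A cluster with 1108 control cells had 51 GC cells, and a cluster with 362 GC cells had 1 control cell. The Cxcl2 levels of those 2 clusters were unlike and are given with Cxcl1 below. Among all genes of callus mature neutrophils, 3.61% were at least 2-fold lower and 4.53% at least 2-fold higher, and Cxcl2 was the only one of the 4 CXC genes measured there to pass either limit. In trabecular mature neutrophils, Cxcl1 alone of the 4 measured genes passed, on the higher side, against 3.65% of all genes higher and 0.674% lower.

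The share of mature neutrophils with a Cxcl2 UMI, with each cell thinned to 1000 UMIs, was 94.1% (92.6 to 95.3) in control callus and 74.2% (71.1 to 77.1) in GC callus. In trabecular bone it was 83.1% (81.1 to 84.9) in control and 85.5% (83.8 to 87.1) with GC. Thinning kept 1262 of 1546 control and 833 of 1202 GC callus neutrophils, whose median depths were 1269 and 1132 UMIs, since shallower cells were left out. Without thinning the shares were 94.8%, 77.0%, 95.6% and 95.5% in the same order. B cells, taken as a class that should lack the gene, had a thinned share of 3.90% in control callus at a median of 1918.5 UMIs.

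The callus class was held by different clusters in the 2 libraries, with 1321 of the 1546 control cells in a cluster that had 49 GC cells, and 1153 of the 1202 GC cells in a cluster that had 225 control cells. Within the former cluster Cxcl2 was 16966 CPM in control and 2647 CPM with GC. Within the latter it was 17739 CPM and 3942 CPM. Both clusters therefore gave the lower level in GC callus. Other genes of the same cells moved with it: Il1b, an inflammatory cytokine gene, was 5695 CPM in control and 1034 CPM with GC, whereas Tnf was 69.9 and 377 CPM. Of 7 measured genes that respond to dissociation stress, 3 were at least 2-fold lower (Fos, Egr1 and Junb) and 1 higher (Atf3), and their part in the result was not tested. The 8 mature neutrophil markers summed to 10907 CPM in control and 10373 CPM with GC, with none past 2-fold.

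Beyond neutrophils, the callus levels of Cxcl2 are given with the level of free RNA. Empty droplets of control callus held Cxcl2 at 491 CPM, and GC callus lists no empty droplets. Of the 12 classes with Cxcl2 at least 2-fold lower, 8 lay below that level in control, among them B cells at 44.6 CPM, T cells at 45.9 CPM and chondrocytes at 77.6 CPM. How much of those levels was free RNA was not tested. No B cell held more than 2 UMIs, whereas single control cells held 174 among chondrocytes, 57 among conventional dendritic cells and 50 among pericytes. The 4 classes above the level of empty droplets were mature neutrophils, mixed-stage neutrophils, the unnamed cluster led by Lyz2 and Chil3, and endothelial cells. In mixed-stage neutrophils Cxcl2 was 4576 CPM in control and 982 CPM with GC (log2 ratio -2.22). Different clusters held those cells in the 2 libraries. A cluster with 109 control cells had 3 GC cells, and 2 clusters with 108 and 57 GC cells had 4 and 6 control cells. In the Lyz2 and Chil3 cluster, of 496 and 461 cells, Cxcl2 was 3091 and 1366 CPM (-1.18). Stress genes were lower there too, 6 of 9 by at least 2-fold with a median of -1.02, and in mixed-stage neutrophils 4 of 7 were lower and 2 higher, with a median of -1.37. Their part was not tested. In endothelial cells 5 cells held 95.9% of the 271 control UMIs, so the 650 CPM there rests on few cells. Macrophages had 1792 CPM in control and 1376 CPM with GC (-0.38), with 45.4% and 67.7% of the UMIs in 5 cells. That ratio ranged from -1.15 to 0.51 over the alternative settings.

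In trabecular bone Cxcl2 passed 2-fold in 3 of the 8 classes measured, none of them neutrophils. Monocytes had 192 CPM in control and 460 CPM with GC (log2 ratio 1.24), and hematopoietic progenitors had 56.0 and 254 CPM (2.08). In those progenitors 5 cells held 81.8% of the 33 control UMIs and 82.4% of the 216 GC UMIs. In monocytes the shares were 40.5% and 37.6%. Immature neutrophils had 306 and 199 CPM (-0.60). All 3 classes were below the 714 and 806 CPM of Cxcl2 in empty droplets of the control and GC libraries. In T cells, 5 cells held 97.8% of the 138 control UMIs, and the log2 ratio of -2.13 became 0.86 without the 5 highest cells of each library. Mast cells or basophils came next to mature neutrophils by level, with 1359 CPM in control and 2699 CPM with GC (0.99), from 30 and 41 cells. Their 5 highest cells held 89.4% of the control and 51.3% of the GC UMIs.

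**Figure D3:**
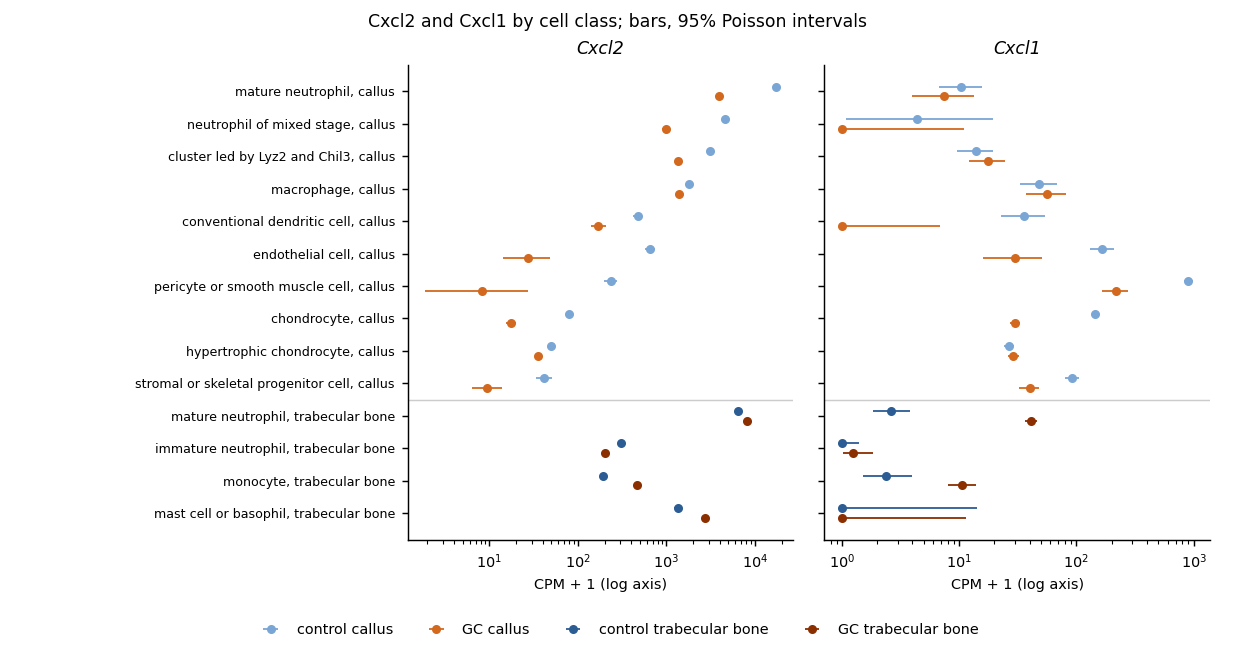
Cxcl2 and Cxcl1 in CPM with 1 added (log axis) by class, for control and GC libraries of callus (upper rows) and trabecular bone (lower rows); bars are 95% Poisson intervals. Cxcl2 was lower in GC callus than in control callus for mature neutrophils (3885 and 17069 CPM), and Cxcl1 was higher in mature neutrophils of GC trabecular bone (40.1 and 1.63 CPM).

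Cxcl1, the close relative of Cxcl2, was a gene of connective tissue and vessel walls in callus. Pericytes or smooth muscle cells had the highest level, 899 CPM in control and 215 CPM with GC (log2 ratio -2.04), although 5 cells held 87.0% of the control and 88.1% of the GC UMIs. Endothelial cells had 166 and 28.7 CPM (-2.34), from 69 and 12 UMIs. Chondrocytes, with 5962 of the 7388 UMIs of control callus, had 142 CPM (139 to 146) against 29.1 CPM (26.3 to 32.1) with GC, a log2 ratio of -2.11. Hypertrophic chondrocytes did not share this, at 25.6 and 28.0 CPM (0.11). Empty droplets of control callus had 67.3 CPM.

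Most of the chondrocyte Cxcl1 came from 1 cluster. A cluster led by Ucma, C1qtnf3 and Scrg1 held 485 control and 29 GC cells, and its control cells held 4653 of the UMIs at 364 CPM, against 25.2 CPM in the GC cells. The other chondrocyte clusters with at least 5 control cells ranged from 9.65 to 177 CPM in control. Stromal cells had 90.9 CPM in control and 38.9 CPM with GC (-1.13), a ratio that changed sign under 3 other settings.

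In trabecular bone Cxcl1 was measured in 2 classes, mature neutrophils and monocytes, and was at least 2-fold higher with GC in both. Neither class was measured for it in callus, so the 2 tissues compare unlike cells. Of the 8 callus classes measured, 4 were at least 2-fold lower and 4 passed neither limit. Callus macrophages had a log2 ratio of 0.20, from 31 control and 26 GC UMIs. The Lyz2 and Chil3 cluster had 0.26, from 29 and 30 UMIs. Both control levels were below the 67.3 CPM of empty droplets of control callus. Trabecular monocytes had 1.20, from 6 control and 44 GC UMIs, with 5 cells holding 77.3% of the GC UMIs. That monocyte ratio ranged from 0.47 to 2.16 over the alternative settings. Empty droplets of trabecular bone had 2.09 CPM of Cxcl1 in control and 8.87 CPM with GC. How much of the monocyte levels was free RNA was not tested. Mature neutrophils had 12 UMIs in control, which is 1.63 CPM (0.841 to 2.84), and 307 UMIs with GC, which is 40.1 CPM (35.8 to 44.9). The log2 ratio was 2.77. A GC cluster of 362 cells led by Ccrl2, Saa3 and Acod1, with 1 control cell, held 240 of the 307 UMIs at 266 CPM, and its Cxcl2 level was 26228 CPM. The largest control cluster, of 1108 cells, had 2.28 CPM of Cxcl1 and 8775 CPM of Cxcl2. Cxcl1 was also in 36 stromal cells of GC trabecular bone at 539 CPM, where control had too few stromal cells (13) to compare.

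Cxcr2, the receptor of both ligands, was a gene of the neutrophil line and followed its maturation. In control trabecular bone it was 5.51 CPM in neutrophil progenitors, 101 CPM in immature and 423 CPM (409 to 439) in mature neutrophils. In GC trabecular bone the levels were 4.78, 120 and 595 CPM (578 to 613). Another 256 GC cells, in a cluster with no control cell, were of mixed stage and are not in this series. The immature cells were split in part. A cluster of 257 control and 220 GC cells was shared, but 217 GC cells lay with 4 control cells. Another cluster had 148 control and 2 GC cells. The mature cells of the 2 libraries differed by a log2 ratio of 0.49, with a class median of 0.29. Different clusters held the mature cells of the 2 trabecular libraries. Of the 1508 control cells, 1108 lay in a cluster with 51 GC cells, and the largest GC cluster, of 989 cells, had no control cell. In the shared cluster Cxcr2 was 479 CPM in control and 694 CPM with GC. Mature neutrophils of callus had less, 274 CPM (252 to 298) in control and 188 CPM (166 to 212) with GC (-0.53). Within the 2 callus clusters the direction was not shared. In the larger control cluster Cxcr2 was 303 CPM in control and 298 CPM with GC, the latter from 49 cells. In the larger GC cluster it was 89.0 CPM in 225 control cells and 183 CPM with GC. The median depths of these clusters were 1284 and 1133 UMIs, so few Cxcr2 UMIs stand behind the smaller side of each. Mixed-stage neutrophils of callus had 293 and 296 CPM. The 55 immature neutrophils of GC callus had 66.8 CPM (35.6 to 114), from 13 UMIs. No callus class outside the neutrophil line exceeded 4.93 CPM.

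**Figure D4:**
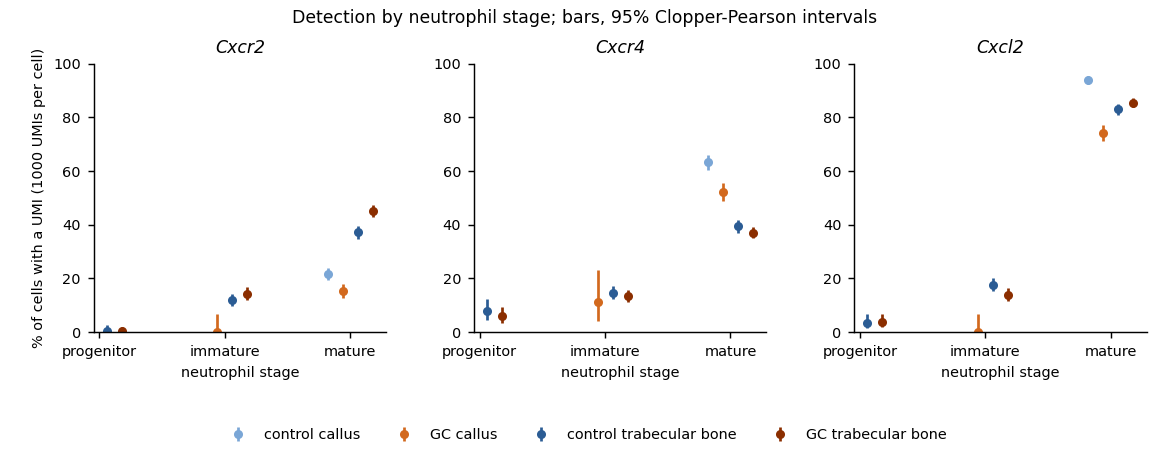
Percent of cells with a UMI of Cxcr2, Cxcr4 and Cxcl2 after thinning to 1000 UMIs per cell (vertical axis), by neutrophil stage and library; bars are 95% Clopper-Pearson intervals. In trabecular bone all 3 genes were detected most often in mature neutrophils, and in callus Cxcl2 was in 94.1% of them in control callus and 74.2% in GC callus.

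Cxcr4, the receptor that retains cells in marrow, was found in leukocytes of every kind and did not reach 2-fold in any of the 15 callus or 9 trabecular classes measured. In callus mature neutrophils it stood at 1289 CPM (1239.5 to 1339) in control, the highest of any class, and at 843 CPM (795 to 893) with GC, next to B cells at 842 CPM. The log2 ratio was -0.61. It compares libraries whose mature neutrophils lay mostly in different clusters, as given for Cxcl2. The lymphocytes of callus lay closer together: NK or innate lymphoid cells had 789 and 788 CPM, B cells 751 and 842 CPM (704 to 800.2 and 774 to 915), and T cells 409 and 465 CPM. Among phagocytes, macrophages had 308 and 348 CPM and conventional dendritic cells 338 and 394 CPM. Among mature neutrophils thinned to 1000 UMIs, Cxcr4 was detected in 63.3% of control and 52.2% of GC cells.

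In trabecular bone Cxcr4 was also higher at later neutrophil stages, from 87.7 CPM in progenitors and 154 CPM in immature cells to 515 CPM (498 to 531) in mature cells of the control library. With GC the classes of these names had 69.5, 128 and 451 CPM (436 to 466), again without the 256 mixed-stage GC cells. Immature and mature cells of the 2 libraries lay partly in different clusters. In the mature cluster with 1108 control and 51 GC cells Cxcr4 was 649 and 284 CPM, a wider gap than in the whole class. T cells showed the widest gap, 834 CPM (734 to 944) in 48 control cells and 460 CPM (423 to 498) in 166 GC cells (-0.85). The libraries filled different T cell clusters: 43 control and 76 GC cells lay in 1 cluster, at 851 and 616 CPM, while 52 and 38 GC cells lay in 2 others, at 403 and 258 CPM, that had 3 and 2 control cells. Monocytes had 296 and 233 CPM, and B cells 701 and 782 CPM, the latter from only 16 GC cells. Hematopoietic progenitors, which Cxcr4 holds in the niche, had 158 CPM in control and 148 CPM with GC. Mature neutrophils of control callus thus had a higher Cxcr4 level than those of control trabecular bone, 1289 against 515 CPM, but tissue and library cannot be told apart.

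Within mature neutrophils, Cxcr4 was detected in like shares of thinned cells with and without a Cxcr2 UMI in 3 of the 4 libraries. The shares were 62.1% and 63.6% in control callus, 39.8% and 39.1% in control trabecular bone, and 37.9% and 36.4% in that of GC mice. In GC callus they were 59.8% and 50.8%, from 127 and 706 cells. Cells with a Cxcl2 UMI had Cxcr4 more often than cells without one in trabecular bone, in 41.7% against 28.2% of control and 38.5% against 28.6% of GC cells. In callus the shares were 62.8% of 1187 against 72.0% of only 75 cells in control, and 51.8% of 618 against 53.5% of 215 cells with GC. The trabecular order was thus not seen in callus.

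Cxcl12, the niche ligand of Cxcr4, was a gene of stromal and vessel cells in callus. Stromal cells had 691 UMIs in control, at 301 CPM (279 to 324), and 201 UMIs with GC, at 77.3 CPM (67.0 to 88.8), a log2 ratio of -1.89. Endothelial cells went the other way, with 322 CPM (269 to 381) in control and 1061 CPM (965 to 1165) with GC (1.71). Both ratios rest on few cells, since the 5 highest cells held 84.7% and 71.6% of the stromal UMIs and 85.1% and 79.3% of the endothelial UMIs. The stromal difference did not reach 2-fold without the 5 highest cells (-0.94) or when cells were called by a UMI cutoff alone (-0.45), and its sign changed with doublets kept (0.030). In callus that cutoff acted on the control library only.

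A small stromal cluster led by Igfbp5, Vcan and Igfbp4, with Kitl, a stem cell factor gene, among its 10 leading genes, carried most of the stromal Cxcl12. Its 7 control cells held 607 UMIs at 15899 CPM and its 10 GC cells held 166 UMIs at 2863 CPM. In the other 3 stromal clusters the control levels were between 3.81 and 175 CPM. In GC callus 45.9% of all Cxcl12 UMIs lay in unnamed cells, 402 of them in a cluster of 34 GC cells with both endothelial and pericyte markers at 538 CPM, so that the named classes leave out much of the gene there. Pericytes had 65.8 and 186 CPM (1.43), with 46 of the 51 GC UMIs in 1 cell. In trabecular bone Cxcl12 was sparse, with 37 UMIs in the control and 49 in the GC cells. Stromal cells held 24 of the former, in 13 cells, and 27 of the latter, in 36 cells (107 CPM). Over all cells Cxcl12 was at 1.09 CPM in control and 1.31 CPM with GC. Empty droplets of the same libraries held more, 10.4 and 12.7 CPM, so the called cells may not show all of its sources.

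**Figure D5:**
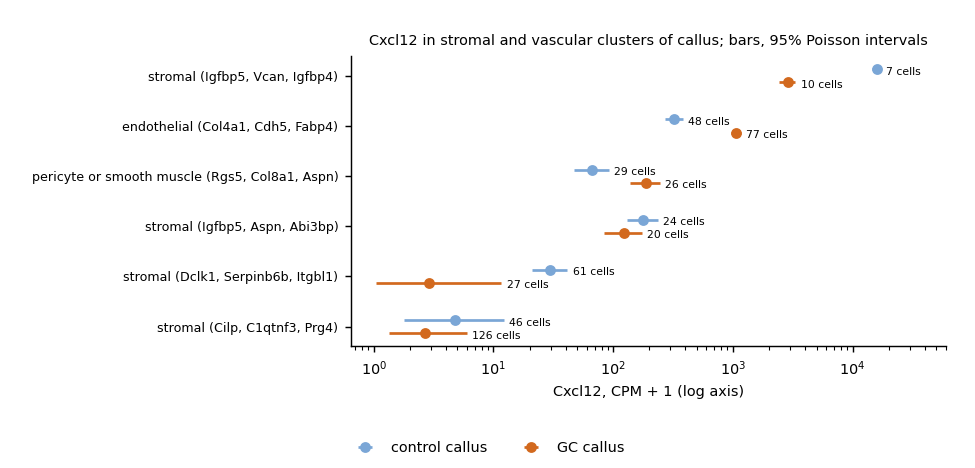
Cxcl12 in CPM with 1 added (log axis) in the endothelial, pericyte and stromal clusters of callus, named by their 3 leading genes, with cell numbers beside the points; bars are 95% Poisson intervals. The stromal cluster led by Igfbp5, Vcan and Igfbp4 stood at 15899 CPM in 7 control cells and 2863 CPM in 10 GC cells.

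Ackr3, the scavenging receptor of Cxcl12, was a cartilage and bone gene in callus with little difference between the libraries. Hypertrophic chondrocytes had 564 CPM (551 to 576) in control and 578 CPM (565 to 592) with GC. Empty droplets of control callus held Ackr3 at 341 CPM, above the control level of every class named next. Chondrocytes had 323 and 317 CPM, osteoblasts or osteocytes 259 and 266 CPM, and stromal cells 227 and 243 CPM. The log2 ratios of these 4 classes were between -0.03 and 0.10. Those of the chondrocyte and hypertrophic classes compare libraries whose cells lay mostly in different clusters. Mixed-stage chondrocytes had 288 CPM in control and 409 CPM with GC (0.50). After thinning, Ackr3 was detected in 40.5% of control and 41.9% of GC hypertrophic chondrocytes. The only ratio past 2-fold was in the Lyz2 and Chil3 cluster, 29.3 and 9.89 CPM. B cells had 26.3 and 28.4 CPM. How much free RNA adds to the levels of Ackr3 was not tested. In trabecular bone the gene was at 349 CPM in the 36 GC stromal cells.

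Cxcl16 was a gene of myeloid cells. In callus, macrophages had 480 CPM (429 to 536) in control and 476 CPM (415 to 542) with GC. Conventional dendritic cells had 475 CPM (423 to 532) and 797 CPM (728 to 870), a log2 ratio of 0.74. The libraries filled different dendritic clusters in part. A cluster with 64 control cells had 5 GC cells, and a cluster of 57 GC cells had no control cell. The others held 22 control and 42 GC cells, and 18 and 21. The Lyz2 and Chil3 cluster had 148 and 259 CPM (0.79), and the cluster led by Cd36 and Cybb had 43.1 and 144 CPM (1.63), from 12 and 42 UMIs. Osteoclasts were lower with GC, at 43.7 and 17.9 CPM (-1.09). Trabecular monocytes had only 13.5 and 8.10 CPM.

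The Cxcl16 receptor Cxcr6 was a T cell gene. T cells held 82 of 104 UMIs in control callus and 117 of 139 in GC callus, at 91.8 CPM (73.0 to 114) and 96.4 CPM (79.8 to 116). In trabecular bone T cells had 99.7 CPM (67.3 to 142) in control and 24.8 CPM (17.0 to 35.1) with GC (-1.81), from 30 and 32 UMIs, with 5 cells holding 70.0% of the control UMIs. In the trabecular T cell cluster of 43 control and 76 GC cells, Cxcr6 was 108 and 34.8 CPM. The 2 others had 3 and 2 control cells. Cxcr3 was likewise led by T cells but its gap lay in the other tissue: callus T cells had 115 CPM (94.1 to 139.9) in control and 51.9 CPM (39.9 to 66.4) with GC (-1.08), and trabecular T cells had 83.1 and 80.0 CPM. The thinned share of callus T cells with Cxcr3 was 10.7% (7.35 to 14.9) in control and 3.21% (1.67 to 5.54) with GC.

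Cxcl14 was led by cartilage in callus. Hypertrophic chondrocytes had 261 CPM (253 to 270) in control and 184 CPM (176 to 191) with GC (-0.50), and chondrocytes had 51.0 and 28.6 CPM (-0.74). Empty droplets of control callus held Cxcl14 at 85.6 CPM, above the control level of chondrocytes. How much free RNA adds to the levels of Cxcl14 was not tested. The chondrocytes of the 2 libraries lay mostly in different clusters. Different clusters held the hypertrophic cells of the 2 libraries: the largest control cluster had 238 control and 3 GC cells, with 440.0 CPM of Cxcl14 in control, and the largest GC cluster had 6 control and 335 GC cells, with 309.9 CPM with GC. In a cluster with 156 control and 47 GC cells the levels were 233 and 155 CPM. Mixed-stage chondrocytes had 5.78 and 167 CPM (3.99), but 854 of the 864 GC UMIs came from a cluster of 149 GC cells and 1 control cell, so that different clusters were compared. The highest level was in the 36 stromal cells of GC trabecular bone, 923 CPM, of which 5 cells held 92.7%.

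Other genes of the pathway were taken from lists. Of 13 further CXC ligands and receptors, 12 were in the tables. In callus mature neutrophils 1 of them was measured, Cxcl3, a neutrophil attractant next to Cxcl1 and Cxcl2, and it was lower with GC, at 607 and 69.9 CPM (log2 ratio -3.03). In trabecular mature neutrophils 3 were measured and none passed 2-fold, Cxcl3 having 95.5 and 184 CPM (0.91). Cxcl10, an interferon-induced ligand of Cxcr3, was highest in callus macrophages, at 441 CPM in control and 643 CPM with GC. Cxcr5, the receptor that guides B cells to follicles, was highest in B cells, at 99.6 and 32.9 CPM in callus.

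Of 17 genes of receptor signalling, 13 were measured in callus mature neutrophils, 1 higher (Vav1, a signalling exchange factor, 45.6 and 105 CPM) and 1 lower. The lower one was Rgs1, which shortens G protein signalling and had 1819 and 348 CPM. Rgs1 was also the only one of 15 lower in trabecular mature neutrophils, at 179 and 35.4 CPM, with none higher. Of 10 NF-kB feedback and cytokine genes, 9 were measured in each tissue's mature neutrophils. In callus, 2 were higher (Tnf and Tnfaip3) and 2 lower (Il1b and Ptgs2). In trabecular bone 4 were higher and none lower, the 4 being Nfkbia, Tnf, Ccl3 and Tnfaip3. Nfkbia, whose promoter shares the kB motif, had 1974 and 2328 CPM in callus and 1133 and 2595 CPM in trabecular bone. Of 8 immature neutrophil markers measured in trabecular mature neutrophils, 1 was higher, Chil3, at 112 and 6643 CPM, and their part in the results was not tested.

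Ligand processing genes moved little: 3 of 4 (Mmp9, Adam10 and Adam17) were measured in mature neutrophils of each tissue and none passed 2-fold. Adam10, a sheddase that releases Cxcl16 from the membrane, had 33.6 and 66.7 CPM in trabecular bone (0.89), and 32.7 and 29.5 CPM in callus. Of 5 niche factors, Spp1, an extracellular matrix phosphoprotein gene, was the 1 measured in mature neutrophils, at 7987 and 6905 CPM in callus (-0.21) and 290.4 and 70.5 CPM in trabecular bone (-1.97).

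Each gene had its nearest likeness among 8607 genes over 64 points, each a class in a library, by the correlation of log2 levels. The points share libraries and depth, so these are descriptions. Cxcl2 was most like Il1b (r = 0.92), Cxcr2 most like Asprv1 (0.96), Cxcr4 most like Inpp5d (0.93) and Cxcl12 most like Prickle2 (0.96). Ackr3 was most like Cpe (0.97), Cxcl16 most like Mmp12 (0.89), and Cxcl1 most like Ecm1 (0.83). Cxcl14 was most like Ghr (0.83), while Cxcr6 and Cxcr3 were most like the T cell genes Trbc2 (0.95) and Cd247 (0.88). Among the 10 genes themselves, over the same 64 points, Cxcr6 and Cxcr3 were the most alike pair (r = 0.82), followed by Cxcl14 and Ackr3 (0.77). Cxcl12 and Cxcl1 had r = 0.67, Cxcl2 and its receptor Cxcr2 had r = 0.64, and Cxcr4 and Ackr3 lay opposite each other (-0.65).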

How the data were processed

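The authors deposited raw counts of UMIs per gene and cell barcode, made with Cell Ranger, whose version is 4 per the file headers and 5.0.1 in the submitters' processing notes, which also name Seurat 3.2.0 and mm10. The matrix of GC callus lists 7762 barcodes that were taken as called, and the other 3 list 6794880. In those, cells were barcodes above a UMI cutoff (10% of the 99th percentile of the 3000 largest), or with at least 500 UMIs and a profile unlike barcodes ranked 45001 to 90000 (10000 simulated draws, adjusted p of 0.01). Called barcodes numbered 7395, 7762, 4175 and 5543 for control callus, GC callus, control and GC trabecular bone, from 95852254, 64388215, 41239842 and 45876714 UMIs. Cells kept had at least 200 genes and at most 10% mitochondrial UMIs, and doublet scores removed 404, 428, 123 and 183. Calling, thinning and ratios were checked on simulated data.

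Clustering pooled the control and GC cells of a tissue (2000 variable genes, 30 components, 15 neighbors, Leiden resolution 1; Python 3.11.15, scipy 1.17.1, leidenalg 0.10.2), leaving out the genes described and the listed genes that are no markers. A cluster took a class name from a set share of its markers, never under 3, that were at least 2-fold over the other clusters in at least 10% of cells. This naming rule was chosen with the clusters in view. The 10 genes and the gene lists were chosen with earlier results of these data known. Levels are CPM of summed UMIs with exact Poisson intervals, shares have Clopper-Pearson intervals, and ratios add 5 CPM and need 50 UMIs over both libraries and 15 cells in each. Genes named are the 10, the listed genes with at least 50 UMIs in a class, and the 3 genes most alike to each of the 10. The genes that lead a cluster were named after their values were seen. A count of 0 allows a level of up to 3 counts. Gene names came from the tables. No protein sequence was used here.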

Additional observations from a re-analysis of the deposited data

Results flagged for a closer look

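In mature neutrophils, 2 genes had ratios of opposite sign in the 2 tissues. The log2 ratio of GC over control for Cxcl2 was -2.13 in callus and 0.34 in trabecular bone. For Cxcr2 it was -0.53 in callus and 0.49 in trabecular bone. Within the 2 callus clusters that held most mature neutrophils, however, Cxcr2 was about level in 1 and higher with GC in the other. Few Cxcr2 UMIs stand behind the 49 GC cells of the first and the 225 control cells of the second. The trabecular ratios of Cxcl2 and Cxcr2 also compare libraries whose mature cells lay mostly in different clusters. The trabecular value of Cxcl2 was 0.050 with the class median set to 0 and -0.27 with the UMI cutoff alone. Its positive sign thus did not hold under that last setting. Callus gave no value there, so the signs of the 2 tissues cannot be compared under it. With 1 library per tissue and condition, these differences between tissues were not tested.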

How the results depend on the processing

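Every comparison rests on 1 library per condition, GC callus has no empty droplets to set beside its levels, and callus neutrophils were shallow. No paired analysis was possible because each group has 1 library and no comparison has a test. The alternatives numbered 20, of which leaving out the 5 highest cells and pooling neutrophil stages were chosen after seeing the data. All values below are log2 ratios or counts, and the cause of each change was not tested.

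Cxcl2 in callus mature neutrophils (-2.13) was -2.08 as a mean over cells, -2.22 without the 5 highest cells, -2.34 with stages pooled, -2.19 with at least 500 genes per cell and also with classes from marker scores, and -2.25 with doublets kept. In trabecular mature neutrophils (0.34) Cxcl2 was 0.050 with the class median set to 0, 0.47 as a mean over cells and when thinned, 0.23 with stages pooled and 0.20 with at least 500 genes. There it was 0.14 with doublets kept, -0.27 with the UMI cutoff alone, 0.40 and 0.30 at Leiden resolutions 0.5 and 2, and 0.31 from marker scores. Cxcl1 in callus chondrocytes (-2.11) was -1.72 with 20 CPM added, -1.68 as a mean over cells, -1.50 when thinned, -2.38 without the 5 highest cells, -1.94 and -2.67 at resolutions 0.5 and 2, and -2.30 from marker scores. Cxcl1 in trabecular mature neutrophils (2.77) was 3.97 with 1 CPM added, 1.48 with 20 CPM and 1.65 with stages pooled.

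Cxcl12 in callus endothelial cells (1.71) was 2.16 as a mean over cells, 1.16 with at most 5% mitochondrial UMIs, 2.03 with doublets kept and 2.37 from marker scores. Cxcl12 in stromal cells (-1.89) was -0.94 without the 5 highest cells, 0.030 with doublets kept and -0.45 with the UMI cutoff alone. Sign also changed for Cxcl12 in pericytes (-0.33 as a mean over cells, -0.63 thinned, -2.23 without the 5 highest cells, -0.85 from marker scores) and for Cxcl1 in stromal cells (2.19 with at least 500 genes, 1.49 with doublets kept, 1.51 with the UMI cutoff alone). It changed for Cxcl14 in mixed-stage chondrocytes (-2.21 at resolution 0.5), for Cxcl2 in callus mast cells (-2.43 without the 5 highest cells, -1.48 with doublets kept) and for Cxcl2 in trabecular T cells (0.86 without the 5 highest cells, 0.065 from marker scores).

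Pairs at least 2-fold higher in callus (5) numbered 3 with at least 100 UMIs, without the 5 highest cells, with at most 5% mitochondrial UMIs and at resolution 0.5, and 11 from marker scores. Those lower in callus (20) numbered 10 with the UMI cutoff alone. Those higher in trabecular bone (4) numbered 7 with at least 500 genes and 11 from marker scores, and those lower (2) numbered 1 with at least 100 UMIs, with the UMI cutoff alone and from marker scores, and 0 without the 5 highest cells. With the UMI cutoff alone, Cxcl2 in callus and Cxcl1 in trabecular mature neutrophils gave no value, and Cxcl12 in stromal cells gave none with at most 5% mitochondrial UMIs or at resolutions 0.5 and 2.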
